A study of Mus musculus with 2 samples.

Results

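The genes described here are 44 imprinted genes of the mouse from 18 domains, chosen by name from what is known of imprinting, with earlier results of these data known. A domain is a stretch of chromosome whose imprinted genes are known to be regulated together. Of the 44 genes, 43 had a row in both gene tables, out of 43346 genes in all, and Peg13 was not analysed here. Chromosome 7 carries 5 of the domains and 20 of the genes. Of the 18 domains, 8 hold several of the chosen genes and 10 hold 1.

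RNA was measured by total RNA sequencing in whole stomachs of embryos of B6NCrl, an inbred mouse strain, at embryonic day 15.5 (E15.5). All libraries belong to 1 group, with no treatment, mutation or second condition. The pool of replicate 1 came from 78 embryos and that of replicate 2 from 62, males and females mixed in each. The genes of the tables received 43209506 expected counts in replicate 1 and 44257493 in replicate 2. No allele was measured, so every statement here on which parental copy is active is background. Errors are SDs over both libraries (n = 2), intervals on counts cover counting error only, and no p-value is given, because each side of a comparison between the pools has 1 library. Levels are in TPM (transcript abundance scaled to the library and corrected for transcript length).

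An imprinted gene is transcribed mainly from the copy inherited from 1 parent, because a mark placed on the DNA in the egg or the sperm, usually methylation, is kept through the divisions of the embryo. Each domain has a control region carrying that mark, and a long noncoding RNA, an insulator or a methylated promoter then sets which neighbours are silent on which copy. Many genes active on the paternal copy promote growth of the fetus, many active on the maternal copy restrain it, and most are known to be high before birth and low afterwards. In the fetal gut, Igf2 and H19 are known as genes of the mesenchyme in particular.

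The promoter of Peg3 and Usp29 is printed because both genes are read from it in opposite directions, while their levels stood far apart in these pools. The RefSeq windows (GRCm38.p6, 250 bases before to 50 after each start) of Peg3, on the minus strand, and Usp29, on the plus strand, share 263 identical bases at chr7:6730370-6730632, and their starts lie 164 bases apart. The shared stretch holds 13 CpGs, the sites at which DNA is methylated, shown in capitals, and is given 5′ to 3′ on the plus strand.
Peg3 and Usp29, shared: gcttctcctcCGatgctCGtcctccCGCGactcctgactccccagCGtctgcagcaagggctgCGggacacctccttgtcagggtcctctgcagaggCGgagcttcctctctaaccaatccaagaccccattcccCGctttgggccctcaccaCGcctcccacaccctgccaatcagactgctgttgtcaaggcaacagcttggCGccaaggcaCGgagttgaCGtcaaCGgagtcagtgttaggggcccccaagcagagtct

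The windows of Gnas, Grb10 and Mest are shown because these genes start at several promoters with different imprinting, and their transcript shares are compared below. CpGs are again in capitals, and each window runs 5′ to 3′ on the gene's own strand. The window of the Gnas start for the stimulatory G protein subunit, active on both copies in most tissues, lies at chr2:174329756-174330055 on the plus strand and holds 40 CpGs. The window of the Gnas exon 1A start, at chr2:174327518-174327817, belongs to a promoter known to be methylated on the maternal copy and holds 28 CpGs.
Gnas, G protein subunit start: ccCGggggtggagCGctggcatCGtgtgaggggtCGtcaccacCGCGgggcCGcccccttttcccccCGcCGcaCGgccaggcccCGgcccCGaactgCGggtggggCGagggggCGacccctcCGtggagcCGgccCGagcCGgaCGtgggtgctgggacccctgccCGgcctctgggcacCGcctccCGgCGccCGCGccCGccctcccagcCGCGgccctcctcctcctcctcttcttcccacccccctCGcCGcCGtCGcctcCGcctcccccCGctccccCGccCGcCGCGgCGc
Gnas, exon 1A start: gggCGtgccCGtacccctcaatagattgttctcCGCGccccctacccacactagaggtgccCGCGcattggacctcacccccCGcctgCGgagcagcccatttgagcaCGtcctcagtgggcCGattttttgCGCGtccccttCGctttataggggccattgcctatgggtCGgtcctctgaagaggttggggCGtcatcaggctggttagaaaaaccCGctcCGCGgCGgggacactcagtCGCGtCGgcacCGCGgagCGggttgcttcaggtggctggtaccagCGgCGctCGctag

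For Grb10, the window of the upstream start at chr11:12037371-12037670 on the minus strand held 45 CpGs, a number reached by 1.93% of the 32851 RefSeq windows compared. The window of the next start, at chr11:12027922-12028221, held 9. In most tissues Grb10 is known to be transcribed from the maternal copy at the upstream promoter, and in neurons from the paternal copy at promoters further downstream. The sources used here do not state whether the downstream start printed is one of these promoters.
Grb10, upstream start: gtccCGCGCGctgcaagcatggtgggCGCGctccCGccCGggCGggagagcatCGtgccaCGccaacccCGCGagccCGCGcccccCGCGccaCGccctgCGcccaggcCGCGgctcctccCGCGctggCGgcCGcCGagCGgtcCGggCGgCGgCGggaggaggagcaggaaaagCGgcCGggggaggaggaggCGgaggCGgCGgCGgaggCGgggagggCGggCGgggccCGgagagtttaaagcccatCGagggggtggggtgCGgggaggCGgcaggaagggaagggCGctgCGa
Grb10, downstream start: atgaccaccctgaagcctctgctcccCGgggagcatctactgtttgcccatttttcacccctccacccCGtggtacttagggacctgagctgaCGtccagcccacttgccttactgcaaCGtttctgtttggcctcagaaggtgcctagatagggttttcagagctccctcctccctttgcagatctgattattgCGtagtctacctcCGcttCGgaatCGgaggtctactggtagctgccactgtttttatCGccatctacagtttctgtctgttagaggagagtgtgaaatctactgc

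The Mest window at chr6:30737803-30738102 on the plus strand held 17 CpGs and belongs to the promoter methylated on the maternal copy.
Mest: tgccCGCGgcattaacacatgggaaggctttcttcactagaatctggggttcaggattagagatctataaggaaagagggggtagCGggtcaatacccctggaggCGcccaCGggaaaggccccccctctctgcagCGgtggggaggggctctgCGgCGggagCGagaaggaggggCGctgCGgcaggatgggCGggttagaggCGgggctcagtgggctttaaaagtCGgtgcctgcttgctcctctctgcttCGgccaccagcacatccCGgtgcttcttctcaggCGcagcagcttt

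Several members are also the source of microRNAs, which silence messenger RNAs that match their seed (bases 2 to 8, in capitals). RefSeq places 56 mature microRNAs within the members, with 55 different seeds, and 26 of them lie in Mirg alone. The pairs shown are those of H19, of Igf2 and of Mest, and, from the strand opposite Rtl1, miR-127, which is known to direct cleavage of Rtl1 messenger RNA, as it is fully complementary to it.
miR-675-5p: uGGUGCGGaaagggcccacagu
miR-675-3p: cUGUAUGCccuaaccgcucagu
miR-483-5p: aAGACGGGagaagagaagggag
miR-483-3p: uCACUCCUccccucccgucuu
miR-335-5p: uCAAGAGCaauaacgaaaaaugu
miR-335-3p: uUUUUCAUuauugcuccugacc
miR-127-5p: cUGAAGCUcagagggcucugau
miR-127-3p: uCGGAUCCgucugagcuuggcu

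The seed GGUUGCC was the only seed shared, by miR-453 and miR-496a-5p of Mirg. None of these small RNAs could be measured here. The libraries held RNA longer than 200 nucleotides, and of 31 microRNA genes and 13 small nucleolar RNA genes inside members, all at most 124 bases long, 1 received any count (0.58 expected counts, in replicate 1). A count of 0 allows up to 0.0694 CPM (counts scaled to the library total) in replicate 1 and 0.0678 in replicate 2. The values below are therefore those of the long host transcripts.

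The dissected tissue carried the markers of stomach. All 4 genes of stomach mesenchyme were at 1 TPM or more in both libraries, among them Barx1, which specifies the stomach (142 and 166 TPM), and all 5 genes of gastric epithelium. Genes of adjoining organs were present too: the summed level of 5 exocrine pancreas genes was 6437 TPM (replicate 1) and 8709 TPM (replicate 2), and that of 5 liver genes was 1634 and 585 TPM. The 4 trophoblast genes, marking placenta, had 0 counts in both libraries. A member's level is that of the whole pool, in which fewer cells of a type and less RNA per cell cannot be told apart.

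Imprinted genes were widely and in part very highly transcribed. At 1 TPM or more in both libraries, 39 of the 43 members were detected, against 35.9% of all genes and 64.5% of protein-coding genes. Of the 37 protein-coding members 33 were detected, and so were all 6 noncoding ones (H19, Airn, Kcnq1ot1, Meg3, Rian and Mirg). At 100 TPM or more in both libraries there were 14 members, where 3.6% of all genes stood that high. The median member lay at 21.3 TPM in each library, and the median detected gene at 15.3 TPM in replicate 1 against 15.5 TPM in replicate 2. The members together took 1.05% of the gene counts in replicate 1 and 1.04% in replicate 2.

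A few genes carried most of this RNA. The 5 highest members, Gnas, H19, Igf2, Mest and Meg3, held 59.4% of the members' summed TPM in replicate 1 and 58.9% in replicate 2. The 10 highest, which add Cd81, Cdkn1c, Dlk1, Nnat and Grb10, held 86.1% and 85.7%. Gnas, at 1307 ± 18.2 TPM, ranked 71 among all genes. At the other end, Slc22a3, Usp29 and Rasgrf1 averaged below 1 TPM, and Magel2 was at 0.87 TPM in replicate 1 but at 1.17 TPM in replicate 2, so that it met the limit in replicate 2 alone.

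**Figure D1:**
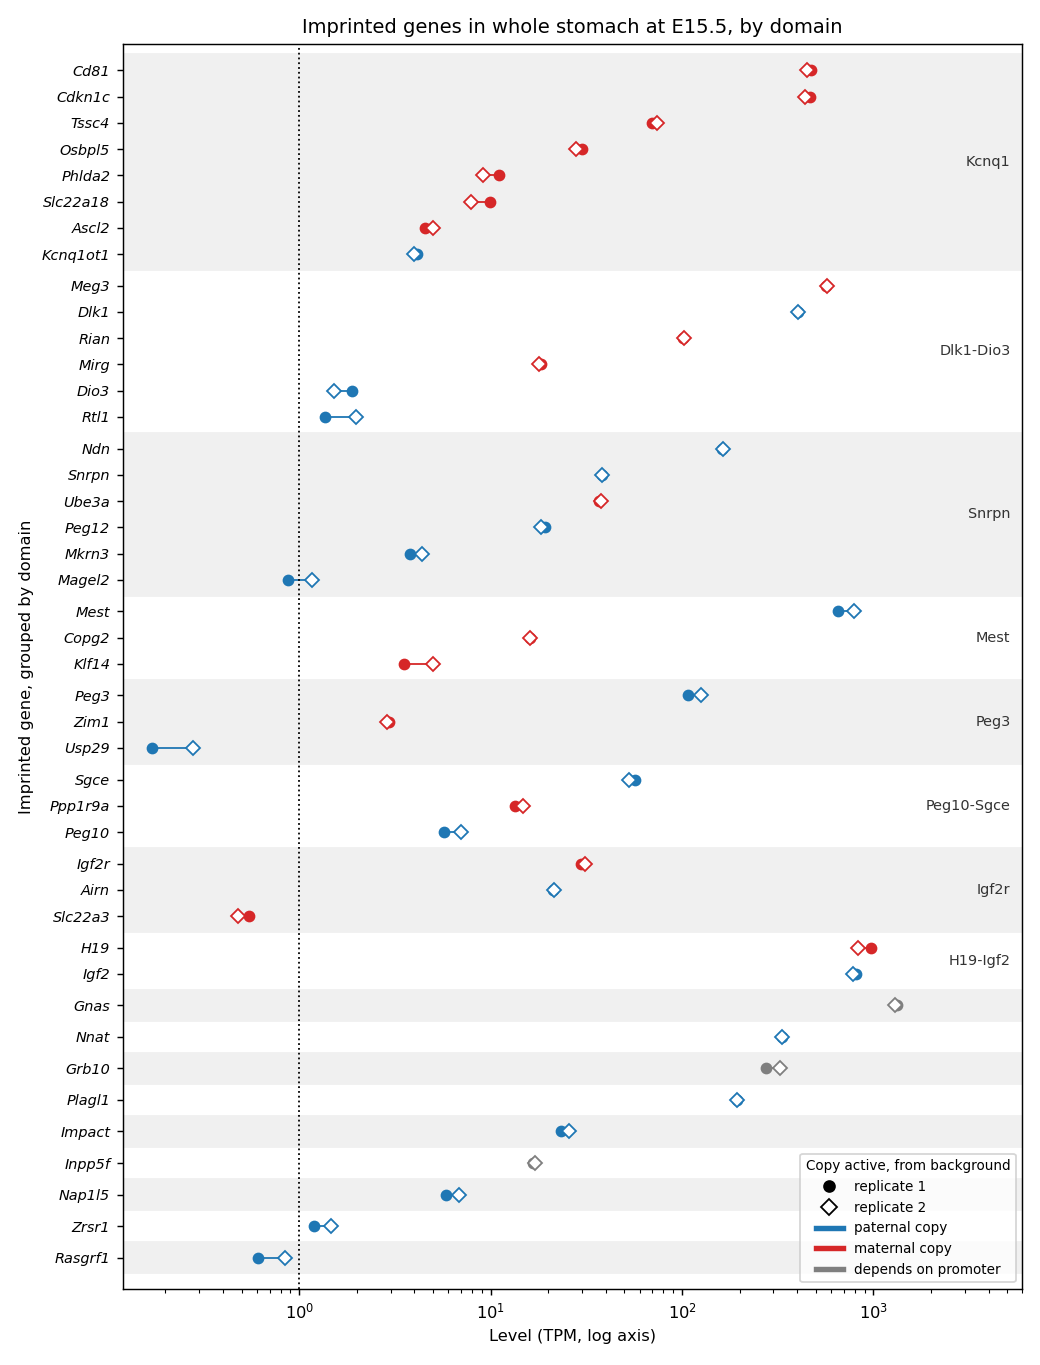
Level of each of the 43 imprinted genes in TPM (log axis), grouped by domain, with replicate 1 as filled circles and replicate 2 as open diamonds, and 1 TPM as a dotted line. Colour gives the parental copy known to be active, for some genes in certain tissues only, from background and not from these data. Gnas stands highest at 1307 TPM and Usp29 lowest at 0.225 TPM (means of both libraries), and most pairs of symbols nearly coincide.

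Ordered by mean level, the members ran from Gnas through H19, Igf2, Mest, Meg3, Cd81, Cdkn1c, Dlk1, Nnat, Grb10, Plagl1, Ndn, Peg3 and Rian, which ended the group at 100 TPM or more. Tssc4, Sgce, Snrpn, Ube3a, Igf2r, Osbpl5, Impact, Airn, Peg12, Mirg, Inpp5f, Copg2, Ppp1r9a and Phlda2 followed, all averaging from 10 to 100 TPM. Between 1 and 10 TPM came Slc22a18, Peg10, Nap1l5, Ascl2, Klf14, Mkrn3, Kcnq1ot1, Zim1, Dio3, Rtl1, Zrsr1 and Magel2. In 32 of the 42 steps of this order, both libraries of the higher gene lay above both of the next. In the other 10 the libraries overlapped, so the order of Igf2 and Mest, of Cd81 and Cdkn1c, of Igf2r and Osbpl5, of Phlda2 and Slc22a18, and of Peg10 and Nap1l5 was not resolved. The same held for the run Ascl2, Klf14, Mkrn3 and Kcnq1ot1, and for the run Dio3, Rtl1 and Zrsr1.

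Among growth factors and their antagonists, Igf2 was abundant. Igf2, the insulin-like growth factor of the fetus (ENSMUSG00000048583, chr7:142650766-142666816), had 814 TPM in replicate 1 and 780 TPM in replicate 2. H19, the noncoding RNA that shares Igf2's enhancers and is active on the other copy (chr7:142575529-142578143), had 966 and 830 TPM. Both genes were above the median detected gene by far, and they stayed close to each other: the log2 ratio of Igf2 over H19 was -0.17 ± 0.11.

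Igf2r, on chromosome 17, encodes the receptor that carries IGF2 to the lysosome and is known to be maternally expressed outside the brain. It had 29.5 TPM in replicate 1 and 31.3 TPM in replicate 2. The ligand was 27.6-fold higher than this receptor in replicate 1 and 24.9-fold in replicate 2. Airn, the paternal noncoding RNA that starts within Igf2r on the opposite strand and silences it, had 21.3 TPM in both libraries, from 560 and 569 counts. The log2 ratio of Igf2r over Airn was 0.51 ± 0.056. The Airn level was scaled to a length of 951 bases, while the gene spans chr17:12741311-12860136. Part of Airn lies inside Igf2r with 0 shared exon bases, and reads of unspliced Igf2r RNA cannot be told apart from it without strand. By these models, the TPM levels of Igf2r and Airn were of the same order. Slc22a3, an organic cation transporter whose imprinting is known from placenta, had 0.55 and 0.48 TPM. Its exons share 420 bases with Plg on the opposite strand, a liver gene at 13.8 and 5.99 TPM, and the strand setting of the counting is not given in the sources used here.

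Of the growth inhibitors, Cdkn1c, a cyclin-dependent kinase inhibitor active on the maternal copy (chr7:143458339-143461050), had 466 TPM in replicate 1 and 438 TPM in replicate 2. Grb10, an adaptor that dampens insulin and IGF receptor signalling (chr11:11930508-12038683), had 276 and 323 TPM. Phlda2, which restrains placental growth, had 11.1 and 9.12 TPM, far below them. Plagl1, a zinc finger transcription factor that arrests the cell cycle and activates other imprinted genes, had 194 TPM in both libraries. Dlk1, a membrane protein with EGF repeats that holds precursor cells undifferentiated, had 403 TPM in replicate 1 and 404 TPM in replicate 2. Cdkn1c, Grb10, Plagl1 and Dlk1 each lay above 94.9% or more of the detected genes.

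The Kcnq1 domain on chromosome 7 holds 8 of the members over 790 kb, and all of them were detected. Kcnq1ot1, the long paternal noncoding RNA whose transcription silences the neighbours, had 4.11 TPM in replicate 1 and 3.96 TPM in replicate 2. Its annotated transcript is 84395 bases long, so these levels rest on 10706 and 10357 counts. It lies inside Kcnq1, on the opposite strand and mostly within introns, with 121 shared exon bases. Kcnq1 itself had 7.48 and 10.8 TPM, and reads of unspliced Kcnq1 RNA cannot be told apart from it without strand. Cdkn1c was 113-fold above Kcnq1ot1 in replicate 1 and 111-fold in replicate 2.

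The remaining genes of this domain spanned from Cd81 downward. Cd81, a tetraspanin of the cell surface, had 471 and 449 TPM, and Tssc4 had 69.5 and 73.7 TPM, with 220 exon bases shared with Trpm5 on the opposite strand (11.6 and 13.1 TPM). Osbpl5, a lipid transfer protein, had 30.0 and 27.8 TPM. These genes are known to be imprinted mainly in placenta. Slc22a18, a membrane transporter, had 9.97 TPM in replicate 1 and 7.86 TPM in replicate 2. Ascl2, a transcription factor required for trophoblast and, in the adult gut, for intestinal stem cells, had 4.54 and 4.99 TPM. No trophoblast gene had a count, as given above.

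In the Dlk1-Dio3 domain on chromosome 12, the maternal noncoding RNAs formed a descending series. Meg3 (chr12:109541001-109571726) had 567 TPM in replicate 1 and 574 TPM in replicate 2, Rian, the host of small nucleolar RNAs, had 101 and 103 TPM, and Mirg, the host of a large microRNA cluster, had 18.3 and 17.9 TPM. All 3 run in the same direction along the chromosome, in this order. The log2 ratio of Meg3 over Rian was 2.49 ± 0.0073, and that of Rian over Mirg was also 2.49, with an SD of 0.045. In TPM, each step down was therefore about equal and was alike in both pools. The levels were scaled to lengths of 1763, 1940 and 1169 bases. The counts were 29104, 5719 and 606 in replicate 1, and 29694, 5972 and 611 in replicate 2. In counts, the step from Rian to Mirg was the larger one.

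The paternal genes of the same domain were more unequal. Dlk1 lay 294-fold above Rtl1 in replicate 1 and 203-fold in replicate 2. Rtl1, a gene derived from a retrotransposon and needed for the fetal vessels of the placenta, had 1.37 TPM in replicate 1 and 1.99 TPM in replicate 2. Dio3, which inactivates thyroid hormone, had 1.89 and 1.52 TPM, from 102 and 90 counts. Rtl1 has microRNA genes on its opposite strand, miR-127 among them, and its counts could include reads of their precursor if strand was not used.

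At the Peg3 domain the shared promoter shown above was followed by very different levels. Peg3, a zinc finger protein known for its effect on growth, had 107 TPM in replicate 1 and 126 TPM in replicate 2. Usp29, a ubiquitin protease active on the same paternal copy, had 0.17 and 0.28 TPM, from 13 and 22 counts. Peg3 was 632-fold higher than Usp29 in replicate 1 and 449-fold in replicate 2. Zim1, a zinc finger gene active on the maternal copy, had 2.95 and 2.86 TPM, between them. The exons of Usp29 also share 2582 bases with Zim3 on the opposite strand.

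In the Mest domain the host gene dominated. Mest, an enzyme-like protein of mesodermal tissue (chr6:30723547-30748465), had 656 TPM in replicate 1 and 793 TPM in replicate 2. Copg2, a coat protein of Golgi vesicles that runs towards Mest from the other side, had 16.1 TPM in both. Its exons share 912 bases with Mest on the opposite strand. Mest was 40.8-fold higher in replicate 1 and 49.4-fold in replicate 2, and without strand its reads could enter the count of Copg2. Klf14, a transcription factor without introns, had 3.51 TPM in replicate 1 and 5.0 TPM in replicate 2.

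The Snrpn domain, the mouse counterpart of the human Prader-Willi and Angelman region, holds 6 members, of which 5 were detected. Ndn, a MAGE protein of neurons and muscle, had 161 TPM in replicate 1 and 164 TPM in replicate 2, the most in the domain. It stood 185-fold above its neighbour and relative Magel2 in replicate 1 and 140-fold above it in replicate 2. Snrpn, a component of the splicing machinery, had 38.2 TPM in replicate 1 and 38.3 TPM in replicate 2. It shares 216 exon bases with Snurf on the same strand (19.1 and 25.1 TPM). Ube3a, a ubiquitin ligase imprinted in neurons only, had 36.9 and 37.7 TPM. Snhg14, the transcript antisense to Ube3a, had 9.14 and 9.02 TPM, and 1803 exon bases are shared between them. Peg12 had 19.4 and 18.4 TPM, and Mkrn3, a ring finger protein whose loss advances puberty in humans, had 3.78 and 4.36 TPM. The enteric neuron genes, 5 of 5 detected, summed to 155 TPM in each library, and their part in the levels of Ndn and Snrpn was not tested.

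In the Peg10-Sgce domain, Sgce, a sarcoglycan of the muscle cell membrane, had 57.0 TPM in replicate 1 and 52.8 TPM in replicate 2. Peg10, its retrotransposon-derived neighbour that is essential in the placenta, had 5.74 and 7.01 TPM. The log2 ratio of Sgce over Peg10 was 3.11 ± 0.28, although the starts of the 2 genes are known to share a methylated region. Ppp1r9a, a scaffold protein of actin, had 13.4 and 14.7 TPM.

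Among the members that stand alone, Nnat, a small membrane protein of developing nervous and endocrine tissue, had 332 TPM in replicate 1 and 334 TPM in replicate 2. It lies in an intron of Blcap (36.3 and 32.9 TPM) on the opposite strand. Impact, a regulator of translation, had 23.4 and 25.8 TPM. Nap1l5, which lies in an intron of Herc3, had 5.85 and 6.83 TPM, near its host at 7.49 and 7.99 TPM. Zrsr1, a retrogene of a splicing factor inside Commd1 with 412 exon bases shared, had 1.2 and 1.46 TPM, where the host had 301 and 321 TPM. The members within hosts were thus higher than, similar to or lower than the gene around them. Rasgrf1, an activator of Ras in the brain, had 0.61 and 0.84 TPM, from 42 and 73 counts.

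Transcript shares were used to see from which promoters Gnas, Grb10 and Mest were read. Transcripts were joined when their starts lay within 500 bases, and the share is the authors' percentage of the gene's TPM. For Gnas, 24 transcripts fell into 7 groups of starts. The group of the stimulatory G protein subunit, between chr2:174330006 and 174330287, held 92.3% in replicate 1 and 92.2% in replicate 2, and its leading transcript Gnas-208 alone held 73.4% and 75.5%. The most upstream start, at 174284320, of the secretory protein Nesp and maternal by background, held 2.98% and 2.86%. The start at 174297859, of the extra-large G protein variant and paternal by background, held 0.64% and 0.68%, and the exon 1A group held 3.36% and 3.43%. The imprinted starts thus held small shares of the TPM of Gnas in both pools. In level, the Nesp start had 39.3 and 37.1 TPM, the exon 1A group 44.2 TPM in each library, and the start of the extra-large variant 8.45 and 8.72 TPM, where the median member had 21.3 TPM. Nespas, the noncoding RNA antisense to Nesp, had 6.50 and 6.42 TPM, and Gm20721, on the opposite strand with 1469 shared exon bases, had 50.8 and 77.4 TPM.

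Grb10 was read mainly from its upstream start. Grb10-201, from 12037401, held 94.7% in replicate 1 and 88.0% in replicate 2. Grb10-203, from 12027971 and next to the downstream window shown above, held 2.50% and 4.04%, or 6.91 and 13.0 TPM. The group after it, led by the 430-base fragment Grb10-207, held 1.70% and 7.07%. Both of these starts therefore differed more between the pools than the gene did. Further downstream, Grb10-205 (0.40% and 0.36%) and Grb10-204 (0.51% and 0.46%) stayed close. A short fragment turns few reads into a high TPM. The group of Grb10-207 took 56.6 counts in replicate 1 and 245 in replicate 2, against 40031 and 43749 for Grb10-201.

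Mest had 97.4% of its TPM in replicate 1 and 97.7% in replicate 2 from the group at 30738050, led by Mest-211. Upstream starts, from which Mest is known to be transcribed without imprinting, held 0.23% in replicate 1 and 0.20% in replicate 2 when summed. These transcripts start at 30723547, 30731968 and between 30733454 and 30733506. Nearly all Mest RNA was thus assigned to transcripts of the printed promoter.

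**Figure D2:**
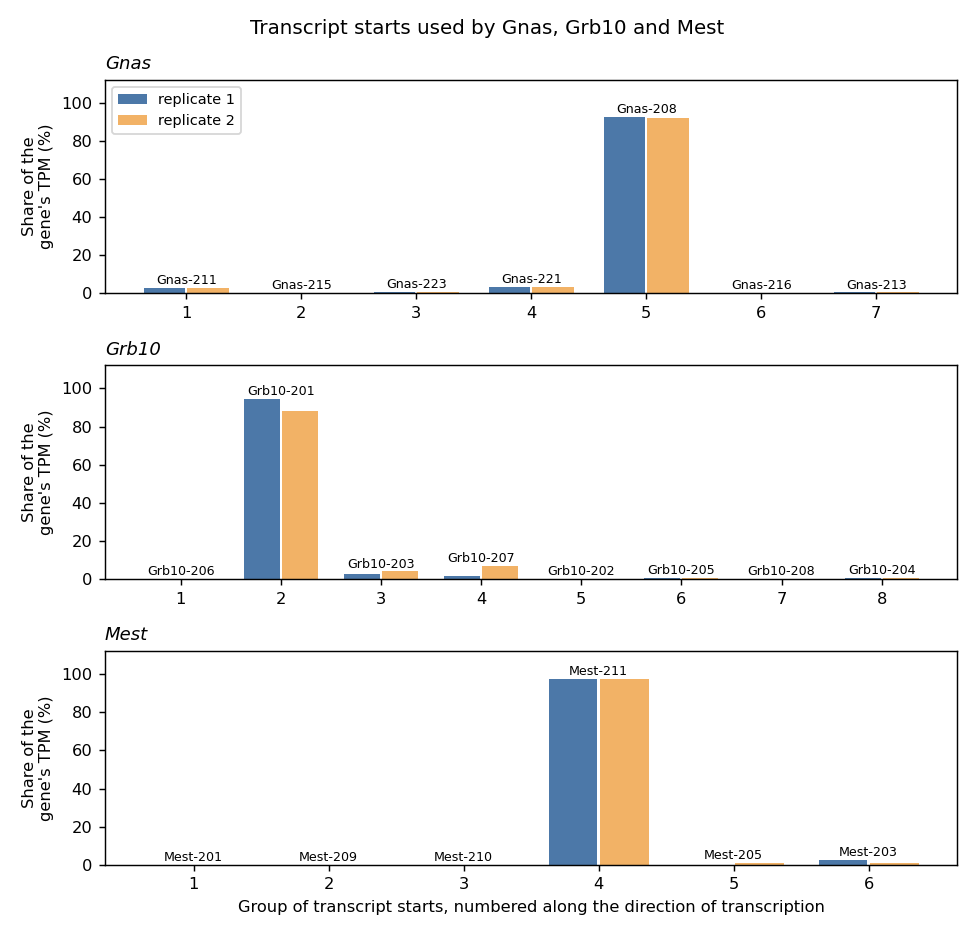
Share of each gene's TPM (percent) on each group of transcript starts, numbered along the direction of transcription, for Gnas, Grb10 and Mest, with replicate 1 beside replicate 2 and the leading transcript named above the bars. The leading groups hold 92.2%, 91.4% and 97.5% on average, and in Grb10 the group of Grb10-201 held 94.7% in replicate 1 and 88.0% in replicate 2, and that of Grb10-207 held 1.70% and 7.07%.

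The same was done for 4 further genes, chosen after their values were seen. Plagl1 had 98.7% and 98.6% of its TPM from 22 transcripts that start between chr10:13090691 and 13091013, the promoter methylated on the maternal copy. Snrpn had 97.7% in replicate 1 and 96.7% in replicate 2 from the start at chr7:60005111, and the remainder from 60140219, far upstream. Inpp5f, a phosphatase of phosphoinositides, had 16.7 and 17.0 TPM in all, and 69.2% and 70.0% of it lay on Inpp5f-208, which starts within the gene at chr7:128687546. A transcript that starts within Inpp5f is known to be paternal in brain, and the files do not state whether Inpp5f-208 is that transcript. The full-length start group held 27.0% and 26.2%.

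Igf2 was divided over 7 groups of starts, and none held more than 41.8% in either library. The start at chr7:142666816 held 34.9% in replicate 1 and 41.8% in replicate 2. The fragment Igf2-208 held 34.97% and 33.67%, the group at 142657466 to 142657496 held 16.7% and 13.6%, and Igf2-205 held 9.79% and 8.03%. In counts, where short models weigh less, Igf2-205 led with 11367 and 8971. The models overlap in their exons, so these shares are the division made by the authors' quantification and not a direct count of starts.

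Beyond the promoters printed, the windows of the members were compared with all windows. Windows of chromosome 18, where Impact lies, were not used. A RefSeq window lay within 500 bases of the leading transcript's start for 29 members. Their median was 17 CpGs in 300 bases, against 7 over all 32851 windows, and 23 of 29 had 10 or more CpGs, where 43.5% of all windows did. These sets are unlike. The members' windows lie at leading starts, while all windows include other starts and genes not detected here. The 9 windows known to be methylated on the maternal copy from the egg on had a median of 13, from 3 at Airn to 26 at Plagl1. The other 20 had a median of 22, from 2 at Igf2 and Slc22a18 to 45 at Grb10. Some of the other windows may also be methylated on a parental copy, as marks gained later were not part of the split. The Igf2 window is that of the start at chr7:142666816, which led in TPM over both libraries but not in counts. The letters TATAAA, searched on the gene's strand in the 50 bases before the start, were in 3 windows (Phlda2, Meg3 and Dio3), 10.3% of the members' and 2.63% of all. A second motif, CCATNTT (N for any base), the core of the site bound by the protein YY1, was searched on both strands of the whole window. It was in 4 windows (Nnat, Magel2, Mkrn3 and Ube3a), 13.8% of the members' and 16.1% of all.

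**Figure D3:**
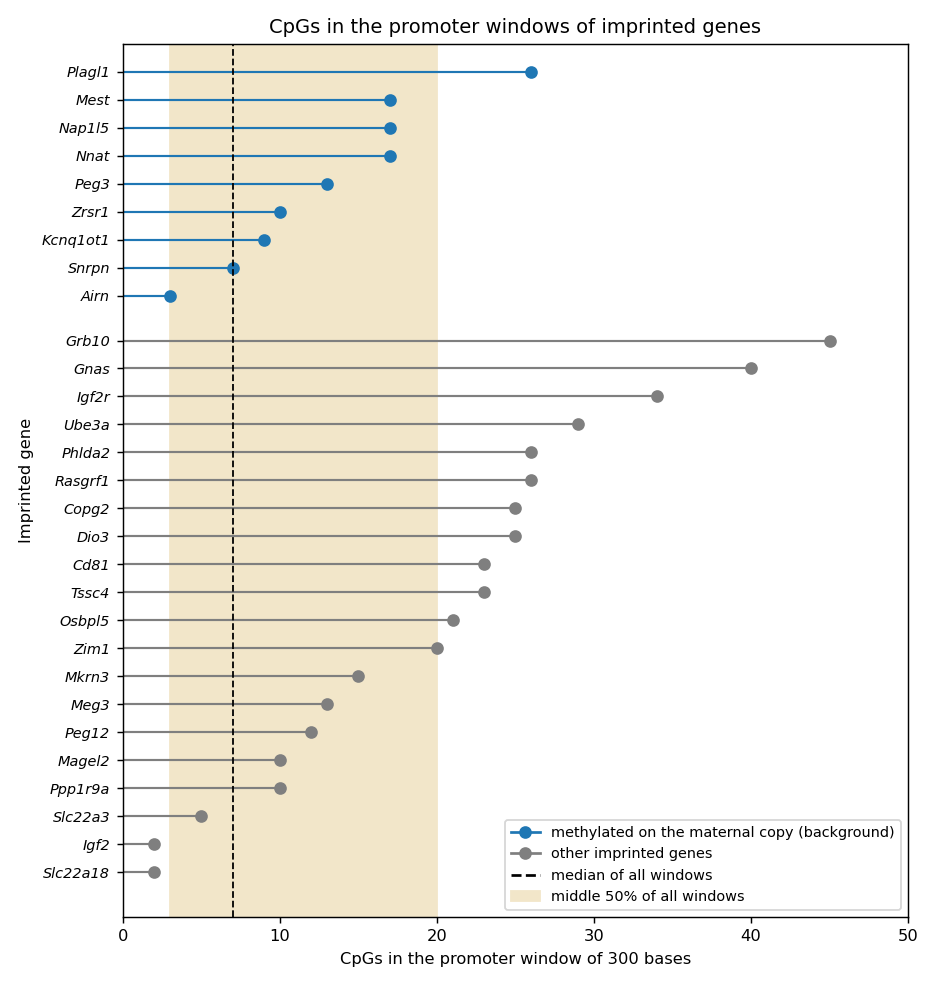
CpGs in the promoter window of 300 bases for the 29 imprinted genes with a window at their leading start. They are split by whether the promoter is known to be methylated on the maternal copy from the egg on (from background). The dashed line is the median of all windows, 7 CpGs, and the band their middle 50%, from 3 to 20, so that Grb10 with 45 and Gnas with 40 stand far to the right.

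The pools were then compared with each other, to see how far imprinted genes varied between collections of embryos. Ratios are log2 of replicate 2 over replicate 1, from rounded expected counts at TMM library sizes (a scaling that evens out the composition of the libraries). A 2-fold difference in either direction was found for 0 of the 43 members, where 7.31% of the 19303 genes with at least 20 counts passed it. The share of all genes depended on depth. When the minimum was raised to 100 counts, it fell to 3.59% of 15804 genes, with 0 of the 42 members left. The same 0 came from DESeq2 size factors (7.31% of all genes). Requiring an exact binomial test on top of 2-fold left 6.3% of all genes. For the members that setting could only give 0 again, so it adds nothing. Scaling to the spike-in RNA gave 1 member, Slc22a18 (log2 ratio -1.05), and 16.1% of all genes. That scaling lowered the median of all genes to -0.68 and the median member ratio to -0.69, and 41 of the 43 members then had a ratio below 0. The median member ratio was -0.01 and the median of all genes 0.00. The median size of the ratio, ignoring its sign, was 0.11 for members and 0.13 for all genes, and 0.068 (29 members) and 0.086 (10776 genes) where both libraries together had at least 1000 counts.

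Past 1.5-fold were 2 members, both higher in replicate 2, against 13.5% of all genes. Rasgrf1 had 42 and 73 counts, a log2 ratio of 0.75 with an exact 95% counting interval from 0.19 to 1.34. Usp29 had 13 and 22 counts, a ratio of 0.69 with an interval from -0.34 to 1.83. Both were among the lowest members, and the interval of Usp29 includes 0.

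**Figure D4:**
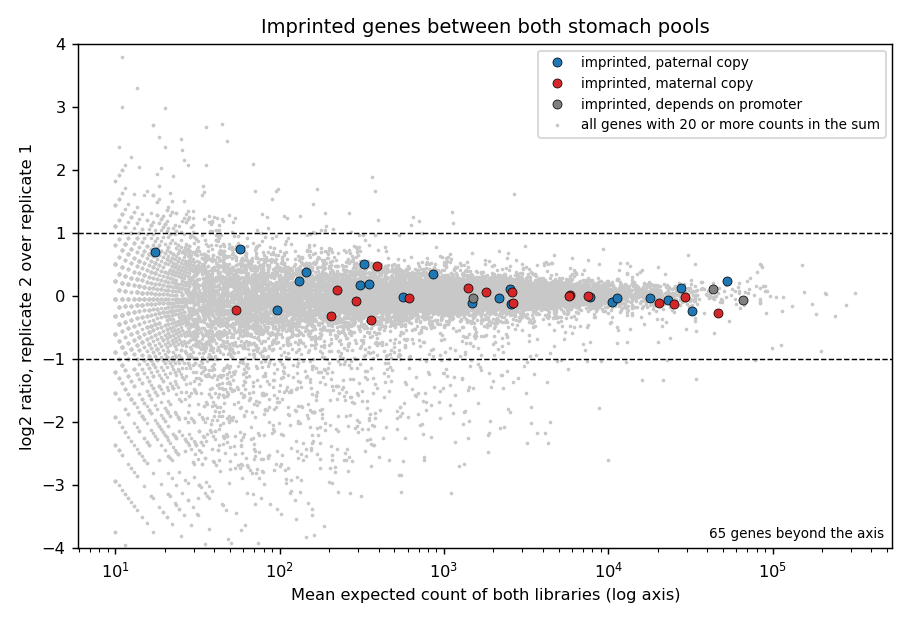
Log2 ratio of replicate 2 over replicate 1 against the mean expected count (log axis) for the imprinted genes, coloured by the parental copy known to be active, and for all genes with 20 or more counts in the sum (grey), with 2-fold as dashed lines. All 43 imprinted genes lie within the lines, and 65 other genes lie beyond the axis limit of 4.

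Smaller differences were seen in both abundant and low members. The TPM intervals deposited by the authors, whose level is not given in the sources used here, did not overlap between the libraries for 10 of 43 members, near the 23.7% of all genes. These intervals belong to the posterior estimate and need not contain the TPM itself. Higher in replicate 2 were Mest, Peg3, Grb10, Impact, Klf14 and Rtl1, all of which had ratios below 0 at the spike-in scaling. Mest had 47588 counts in replicate 1 and 57984 in replicate 2 (log2 ratio 0.24, counting interval 0.23 to 0.26). Klf14 had 320 and 458 counts (0.47, from 0.27 to 0.69), and Rtl1 had 264 and 386 (0.51, from 0.28 to 0.74).

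Lower in replicate 2 were Igf2, H19, Cdkn1c and Cd81. H19 had 49955 counts in replicate 1 and 42547 in replicate 2 (log2 ratio -0.27), Igf2 had 34609 and 30099 (-0.24), and Cdkn1c had 25874 and 24457 (-0.12). All 5 liver genes were lower in replicate 2 by 2-fold or more, with a median log2 ratio of -1.76, as were 3 of 5 erythroid genes (median -1.15). In the other direction, 3 of 4 striated muscle genes were 2-fold or more higher in replicate 2, with summed levels of 46.6 TPM there and 18.2 TPM in replicate 1. Exocrine pancreas genes (5 of 5 higher in replicate 2, median 0.46) and islet genes (4 of 4 higher, 0.28) also moved that way, while gastric epithelium genes (4 of 5 lower, -0.31) and mesothelium genes (3 of 3 lower, -0.29) moved the other way, none of them by 2-fold. The part of these tissues in the members' differences was not tested. In smooth muscle (4 genes) the median ratio was -0.02, and none passed 2-fold. Stomach mesenchyme genes had a median of 0.10 (0 of 4 lower) and enteric neuron genes one of -0.09 (4 of 5 lower), again none by 2-fold.

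By the parental copy known to be active, the members divided into 22 paternal, 18 maternal and 3 whose copy depends on the promoter (Gnas, Grb10 and Inpp5f). Imprinting broadly in the embryo is known for 21 of the paternal but for only 10 of the maternal genes. The others are known to be imprinted in certain tissues, so both of their copies may be active here. Cd81, the highest of these, adds 471 and 449 TPM to the maternal sums below. Detected were 19 of the paternal and 17 of the maternal genes, and 7 and 5 of them were at 100 TPM or more in both libraries. The paternal genes summed to 2852 TPM in replicate 1 and 2980 TPM in replicate 2, the maternal ones to 2817 and 2643 TPM. Their medians were 20.3 and 19.9 TPM for the paternal genes, and 23.9 and 22.9 TPM for the maternal genes. The difference of the medians of log2(TPM + 0.1), paternal minus maternal, was -0.18 ± 0.019. As a difference of means it was -0.71 ± 0.10 (SD, n = 2 libraries for both), so its size depends on how the classes are summarised. The difference was not tested.

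Genes that host or neighbour imprinted genes, some of them imprinted as well in certain tissues, were mostly transcribed: 21 of 23 were detected. Nap1l4 of the Kcnq1 domain was at 142 ± 9.74 TPM and H13, on chromosome 2, at 105 ± 6.80 TPM. Ins2, the insulin gene next to Igf2, was at 463 ± 41.8 TPM and is a marker of the islets of the pancreas. Calcr and Slc22a2 were below 1 TPM. None of the 22 with enough counts differed 2-fold between the pools. Tspan33 had 16.0 TPM in replicate 1 and 8.29 TPM in replicate 2, a log2 ratio of -0.99, and Tspan32 had 6.04 and 2.92 TPM (-0.97).

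Of 15 further genes known to be imprinted in some tissue, 12 were detected. Dcn, the matrix proteoglycan decorin, was highest at 453 ± 47.4 TPM, and Slc38a4, an amino acid transporter, had 46.8 ± 3.73 TPM. Ano1, a chloride channel of the pacemaker cells of the gut, had 38.7 ± 0.354 TPM. Kcnk9, Cdh15 and Htr2a stayed below 1 TPM. Imprinting of Dcn and Ano1 is known from placenta.

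Most factors that set imprints, guard them or keep them through cell division were present. Of 14 such genes 12 were detected, 11 of them at 10 TPM or more in both libraries. Trim28, the corepressor recruited to methylated imprints, had 179 TPM in replicate 1 and 207 TPM in replicate 2. Zfp57 and Zfp445, the zinc finger proteins that bring it there, had 50.7 ± 1.93 and 28.6 ± 1.38 TPM. Dnmt1, which copies methylation at replication, had 52.2 ± 1.82 TPM, and Uhrf1, its partner, had 87.1 ± 3.99 TPM. Dnmt3a, the enzyme that sets imprints in germ cells, had 103 ± 3.70 TPM, while its germ cell cofactor Dnmt3l had 0.71 and 0.28 TPM and Dppa3, a guardian of imprints in the early embryo, had 0 and 1 counts. Ctcf, which binds the insulator between Igf2 and H19, had 89.1 ± 1.96 TPM.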

How the data were processed

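Total RNA of 2 pools was sequenced by the authors, from 10 ng of RNA longer than 200 nucleotides with added ERCC spike-ins, per the labels. Reads were quantified on mm10 with annotation M4, per the text deposited beside the tables. The program and strand setting are not given in the sources used here. Per the file headers, the authors deposited an expected count per gene and transcript, in which ambiguous reads were divided. TPM and FPKM, with posterior means, were scaled by the authors for length and library, spike-ins included. The bounds of the TPM interval were treated as a deposited signal column of unstated level, and the share of a gene's TPM per transcript is the authors' percent value.

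From these files, symbols, types and coordinates were taken from GENCODE M21 (same build) by identifier without version, and 42462 of 43346 genes (98.0%) matched. Expected counts were rounded for ratios, which used a prior count of 0.5, TMM sizes from edgeR 4.0.16 over genes with at least 10 counts, and a minimum of 20 counts in the sum. The ratio code was tested on simulated data. DESeq2 1.42.0 gave alternative sizes. Of the members, 11 had fractional counts (tolerance 0.005). The text names every member and, of the other lists, genes at 10 TPM or more in both libraries or overlapping a member. Genes below these limits, and the transcripts of Igf2, Plagl1, Inpp5f and Snrpn, were named after their values were seen. The members and lists were chosen with earlier results of these data known. No test between conditions was made, as there is 1 group, and an exact binomial test between the pools was run as an alternative only.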

Additional observations from a re-analysis of the deposited data

How the results depend on the processing

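The count of members detected stayed between 36 and 41 under all 8 alternatives, the libraries left out in turn included (39 and 40). The median of 21.3 TPM ran from 21.28 to 21.34 with a library left out, and was 14.7 in FPKM and 28.7 TPM over detected members only. The median ratio between the pools moved with the spike-in sizes alone, to -0.69, as did the median of all genes (-0.68). Members past the limit between the pools were then 1 (16.1% of all genes), 2 at 1.5-fold, and 9 at 1.2-fold (29.2%), the last added after the data were seen. The paternal minus maternal difference of logs stayed below 0 in every setting. It was -0.25 in CPM, -0.71 as a mean, -0.22 over detected members and -0.14 over members imprinted broadly in the embryo. With a library left out it ran from -0.20 to -0.17. The summed TPM went the other way in both libraries (paternal 2852 and 2980, maternal 2817 and 2643). The leading Gnas share of 92.2% was 92.1% from posterior means, 95.6% with starts joined over 2000 bases, 91.7% of counts, and 96.1% over protein-coding transcripts, a choice added later. For Grb10 it was 96.1% of counts, and for Mest 97.2% from posterior means, 99.5% of counts and 99.8% over protein-coding transcripts. With a library left out these shares ran from 92.2% to 92.3%, from 88.0% to 94.7% and from 97.4% to 97.7%. Single levels changed by at most 6.90% from posterior means (Rasgrf1) and by 24.4% with a library left out (Usp29). Ratios between the pools have no value with a library left out. No paired analysis was possible because there is only 1 group. Members under 100 counts, such as Usp29, are limited by depth.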
